A study of Homo sapiens with 18 samples.

Results

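The genes described here are 10 genes of Wnt feedback and of the intestinal crypt stem cell: LGR5, LGR4, RNF43, ZNRF3, AXIN2, NKD1, ASCL2, SP5, OLFM4 and PROM1. They were chosen by name, and every probe set that the platform annotation ties to 1 of these symbols alone was taken. That gave 24 of the 49293 probe sets tested and 10 of 18132 genes. RNF43 had 6 probe sets, NKD1 had 4 and AXIN2 had 3. LGR5, LGR4, OLFM4 and PROM1 had 2 each, and ASCL2, ZNRF3 and SP5 had 1 each. RNA was measured on 18 Affymetrix arrays from WiDr and HT29, human colorectal cancer lines in culture, with 6 groups of 3 arrays. WiDr cells received vehicle, received AZ628, were transduced with a control shRNA, or were transduced to silence CHUK, the gene of the kinase IKKα. HT29 cells received vehicle or AZ628, an inhibitor of RAF kinases that the labels give as the BRAF inhibitor. The doses, the treatment times, the shRNA sequences and the vehicle are not given in the sources used here, and nothing says whether replicates were separate cultures, so the p-values cover the spread among arrays, which may be technical.

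Wnt ligands, with R-spondins bound to LGR receptors, keep crypt stem cells dividing by protecting β-catenin, which then activates target genes through TCF/LEF factors. Several of those targets feed back on the pathway: RNF43 and ZNRF3 are ubiquitin ligases that clear Wnt receptors from the membrane, AXIN2 is a scaffold of the β-catenin destruction complex, and NKD1 binds Dishevelled. Both lines carry an activating BRAF mutation and truncated APC, so β-catenin is active without added ligand, and genotyping has shown that WiDr derives from HT29. They are therefore not independent tumours.

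SP5 and RNF43 are shown by their promoters because SP5 was the member with the largest change under the IKKα shRNA and RNF43 rose with AZ628 in both lines and with the IKKα shRNA. RefSeq promoter windows of 300 bases, from 250 bases before to 50 bases after a start site in build GRCh38.p14, were found for 5 of the 10 genes, with 9 windows in all. SP5 lies at chr2:170715087-170715386 on the + strand, and the first RNF43 window lies at chr17:58417485-58417784 on the - strand. The core TCF/LEF motif CTTTGAT was searched on both strands together with its variant CTTTGTT, the variant CTTTGAA and the variant CTTTGTA, and the capitals mark the matches.
SP5: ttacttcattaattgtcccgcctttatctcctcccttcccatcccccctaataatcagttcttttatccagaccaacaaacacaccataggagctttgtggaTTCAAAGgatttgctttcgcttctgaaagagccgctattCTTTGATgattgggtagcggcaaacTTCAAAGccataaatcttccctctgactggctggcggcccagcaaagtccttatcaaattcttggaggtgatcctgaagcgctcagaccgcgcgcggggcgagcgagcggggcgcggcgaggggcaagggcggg
RNF43: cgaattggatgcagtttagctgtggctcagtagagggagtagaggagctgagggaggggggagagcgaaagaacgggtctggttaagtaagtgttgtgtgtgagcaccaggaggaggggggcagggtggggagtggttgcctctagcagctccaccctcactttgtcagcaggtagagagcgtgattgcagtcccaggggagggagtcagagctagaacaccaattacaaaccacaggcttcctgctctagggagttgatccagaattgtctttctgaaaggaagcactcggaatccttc
The SP5 window held 3 matches, starting at positions -148, -109 and -84 from the start site, of which the outer ones lay on the - strand, and no match overlapped another. Neither RNF43 window nor the LGR4 window held a match, OLFM4 held 1, and 1 of the 4 PROM1 windows held 1. Of 35116 windows of this length, 13.8% held at least 1 match and 0.179% held at least 3. A match is a run of letters and was not tested as a binding site.

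The arrays of a group resembled each other more than arrays of other groups (Pearson r 0.9963 to 0.9981 within groups and 0.958 to 0.9958 between them, across probe sets). In the arrays labelled IKKα shRNA, CHUK differed from the control shRNA by -2.12 log2 units (adjusted p = 4.19e-10), and with AZ628 it differed from vehicle by -0.43 in WiDr and -0.37 in HT29. The RAF and MAP kinase targets DUSP6, SPRY4, ETV4 and ETV5 changed by between -2.56 and -5.09 log2 units with AZ628 in both lines, and none passed with the IKKα shRNA. The epithelial marker EPCAM was bright, between 13.20 and 13.35 in the group means. The intestinal factors CDX1 and CDX2 were dimmer, between 5.30 and 5.71 and between 6.10 and 7.07. Of 8 colorectal epithelium genes, 3 rose and 3 fell with AZ628 in each line. With the IKKα shRNA 2 fell and none rose. With 1 probe set per gene, 43.3% of all genes passed with AZ628 in WiDr, 42.1% in HT29 and 33% with the IKKα shRNA. The group means of VIL1 lay between 9.02 and 11.25 and those of KRT20 between 10.13 and 12.51. The leukocyte gene PTPRC lay between 3.10 and 3.31 and the fibroblast collagen COL3A1 between 3.06 and 3.57. Some other markers of cells outside the epithelium were brighter, with COL1A1 at 5.52 to 5.68, HBB at 6.27 to 6.64 and VWF at 6.01 to 6.48. The fibroblast gene LUM ranged from 3.13 to 6.32 and the macrophage gene CD68 from 6.52 to 7.85, and both differed between groups as given below. All values below are RMA log2 signals. A difference was called at a limma adjusted p under 0.05 over all 49293 probe sets, and a change of 1 log2 unit is 2-fold. In extracts of whole cultures, fewer expressing cells and less RNA per cell cannot be told apart.

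**Figure D1:**
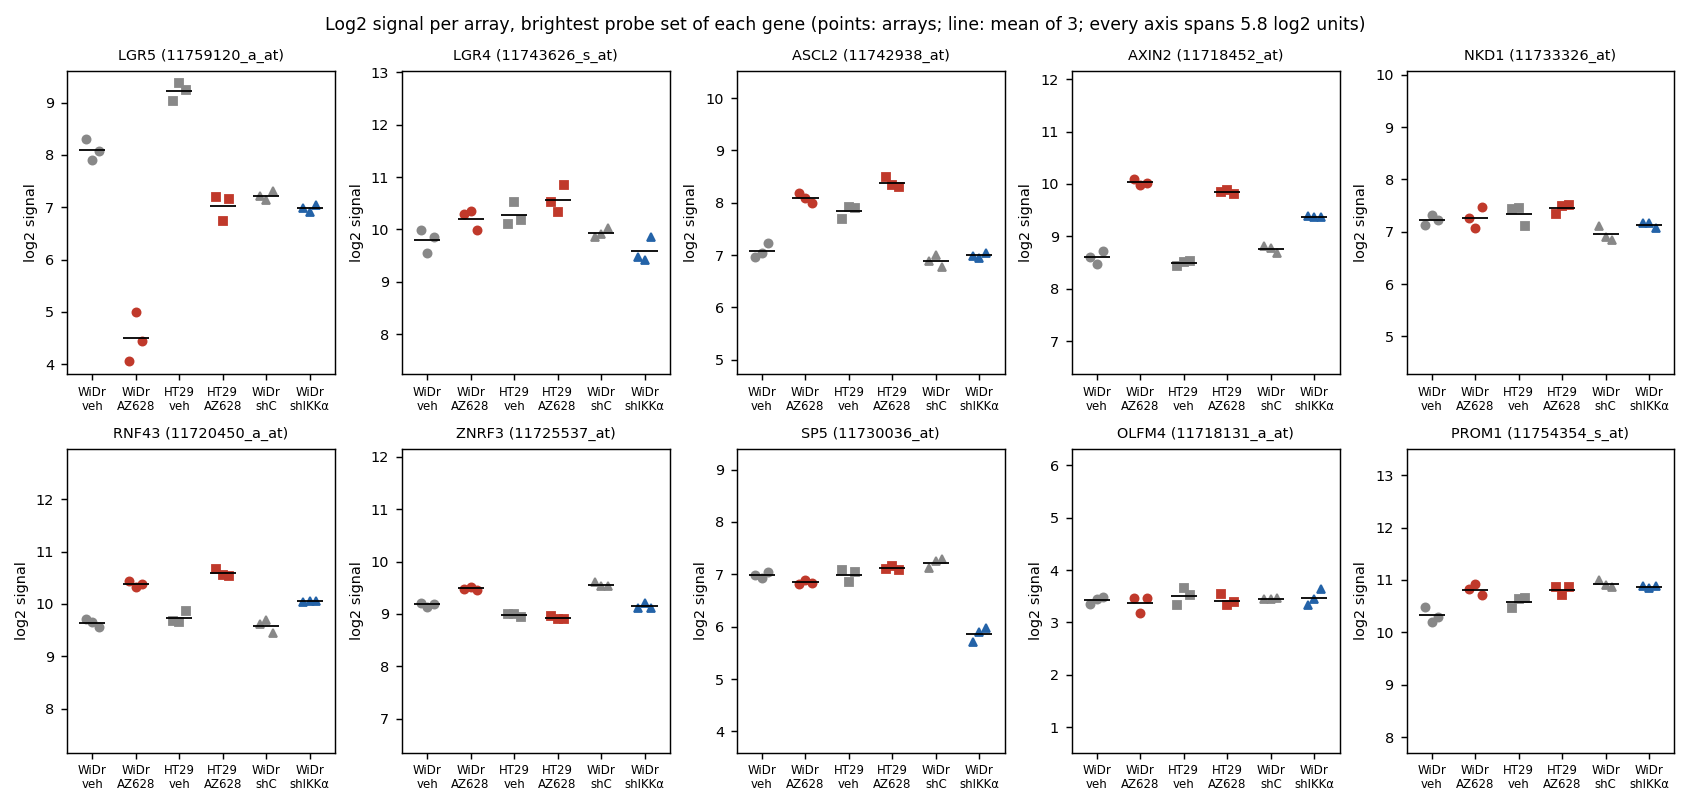
Log2 signal (vertical axis) of the brightest probe set of each of the 10 genes in the 6 groups (horizontal axis); points are arrays, the line is the mean of 3, and all panels span the same number of log2 units. LGR5 spans the widest range, from 4.05 in a WiDr AZ628 array to 9.37 in an HT29 vehicle array, SP5 is lowest in the IKKα shRNA arrays, and OLFM4 stays below 3.7 throughout.

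AZ628 lowered LGR5 and raised AXIN2, RNF43 and ASCL2 in both lines. In WiDr, 13 of the 24 probe sets passed, 10 higher and 3 lower, against 39.3% of all probe sets (20.2% higher and 19% lower). In HT29 it was also 13 of 24, 11 higher and 2 lower, against 38.3% of all probe sets (19.6% and 18.7%). Probe sets of 1 gene are not separate members, and the 13 in HT29 belong to 5 genes. By the brightest probe set, 7 of 10 genes passed in WiDr and 5 of 10 in HT29, against 43.3% and 42.1% of all genes. The HT29 gene count lies near that background. The members' median difference was 0.15 in WiDr and 0.20 in HT29, with medians over all probe sets of -0.004 and 0.0033. The arrays of both groups did not overlap for 14 member probe sets in each line, against 47.3% of all probe sets in WiDr and 45.5% in HT29. With the IKKα shRNA 7 of 24 passed, 5 higher and 2 lower, against 29.7% of all probe sets (14.2% and 15.5%), and 10 did not overlap, against 42.1%. These member counts in the shRNA comparison lie near the background.

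**Figure D2:**
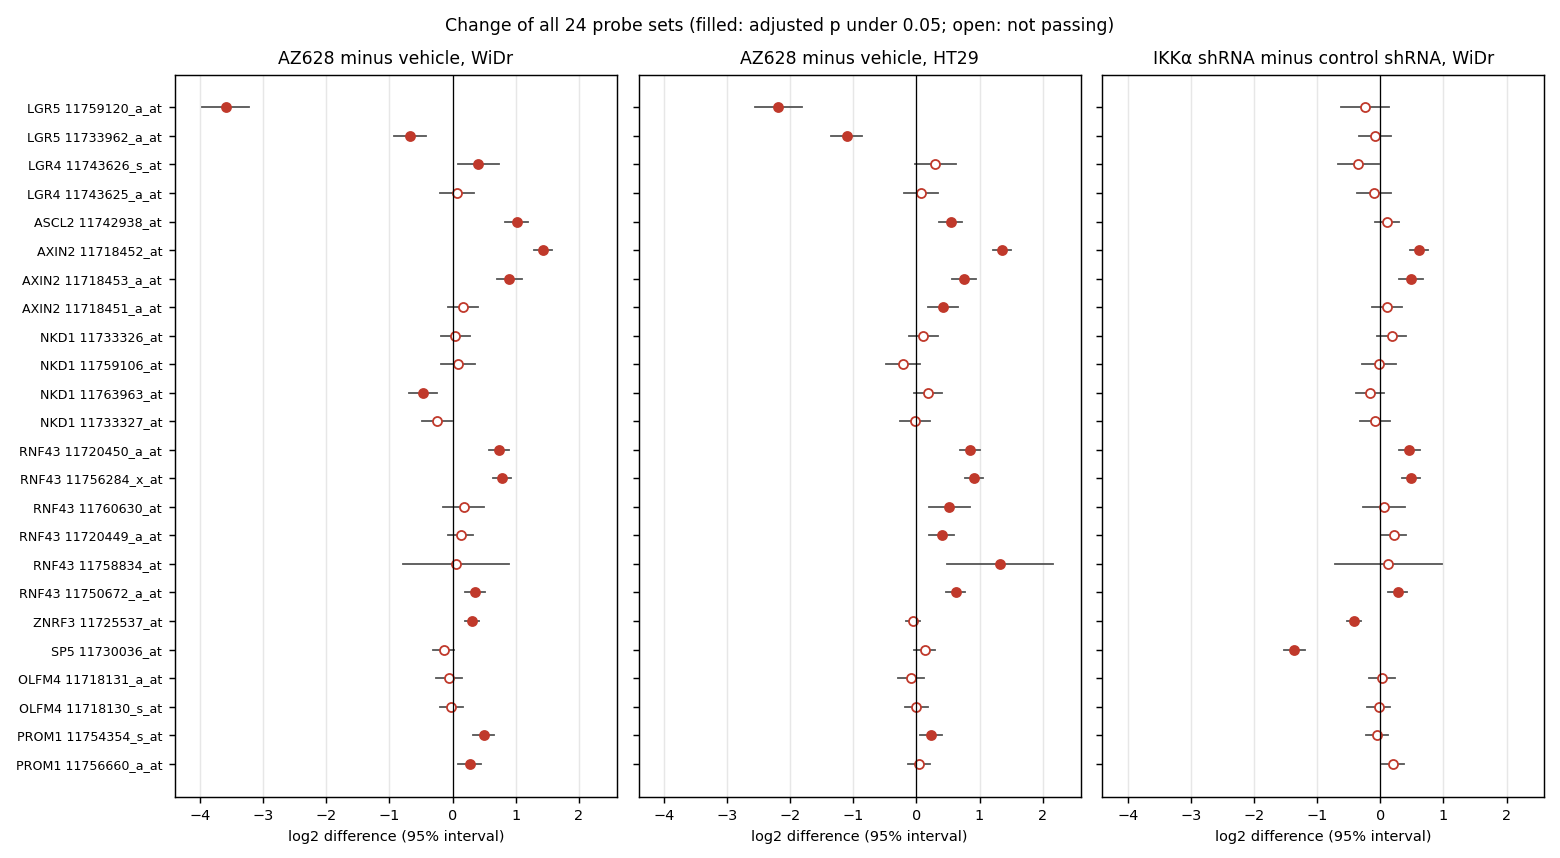
Log2 difference (horizontal axis) of all 24 member probe sets (rows) for AZ628 in WiDr, AZ628 in HT29 and IKKα against control shRNA (WiDr), with 95% intervals; filled points passed at an adjusted p under 0.05. LGR5 lies far to the left with AZ628, at -3.59 in WiDr and -2.19 in HT29, and SP5 at -1.36 with the shRNA alone.

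LGR5, an R-spondin receptor and the classical marker of crypt stem cells, showed the largest change of the set. Its brighter probe set, 11759120_a_at, read 8.30, 7.90 and 8.07 in WiDr with vehicle and 4.05, 4.99 and 4.45 with AZ628. In HT29 it read 9.03, 9.37 and 9.24 with vehicle and 7.19, 6.73 and 7.16 with AZ628. The vehicle and AZ628 arrays lay wide apart in both lines. The difference was -3.59 ± 0.18 (SE, n = 3 against 3, adjusted p = 1.36e-11) in WiDr, a measured 12.1-fold fall, and -2.19 ± 0.18 (n = 3 against 3, adjusted p = 1.29e-08) in HT29, a 4.55-fold fall. Among the WiDr AZ628 arrays, 4.05 and 4.45 lie below 4.62, the 30th percentile of probe set means, where RMA compresses signals, so the WiDr fold can be understated. With this probe set the fall was smaller in HT29 by 1.41 ± 0.25 (adjusted p = 0.00185).

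The second LGR5 probe set, 11733962_a_at, also fell in both lines but gave another order between them. It read 5.88, 5.40 and 5.97 in WiDr with vehicle and 5.04, 5.23 and 4.96 with AZ628, a difference of -0.67 (adjusted p = 0.000144). In HT29 it went from 6.45, 6.47 and 6.54 to 5.32, 5.35 and 5.47, a difference of -1.11 (adjusted p = 5.17e-07). Here the fall was larger in HT29, by -0.43, which did not pass (adjusted p = 0.177). With both probe sets averaged, the difference between the lines was 0.49 and no longer passed (adjusted p = 0.12). Which line lost more LGR5 signal thus depends on the probe set. The means of 11733962_a_at were close in WiDr with AZ628 (5.08), IKKα shRNA (5.08) and control shRNA (5.17), and these arrays overlapped. By the brighter probe set, WiDr with AZ628 lay below both shRNA groups (means 6.98 and 7.22) without overlap. The WiDr fall by 11733962_a_at, and the average that includes it, can therefore be understated, which was not tested.

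By its brighter probe set, LGR5 did not pass with the IKKα shRNA, at -0.24 (95% interval -0.62 to 0.13, adjusted p = 0.351). The IKKα shRNA arrays read 6.98, 6.91 and 7.05 and the control shRNA arrays 7.21, 7.14 and 7.32, which do not overlap. Fitted on these 2 groups alone, it passed (adjusted p = 0.0453). Both shRNA groups lay below untransduced WiDr cells with vehicle, with differences of -0.87 for the control shRNA (adjusted p = 0.00323) and -1.11 for the IKKα shRNA (adjusted p = 9.17e-05). The change with the shRNA was less negative than that with AZ628 by 3.35 ± 0.25 (adjusted p = 5.17e-09). Ordered by mean, WiDr with AZ628 was lowest, then IKKα shRNA, HT29 with AZ628 and control shRNA, which overlap with their neighbours, then WiDr with vehicle, and HT29 with vehicle on top. The second probe set, 11733962_a_at, had means of 5.08 with the IKKα shRNA and 5.17 with the control shRNA. Its arrays overlapped between these groups, and it did not pass (adjusted p = 0.656).

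Some markers of other cell types changed in the same comparisons, and their part in the LGR5 result was not tested. Of 9 absorptive cell genes, 2 rose and 2 fell with AZ628 in WiDr (median -0.03), and 3 rose and 2 fell in HT29 (median 0.12). With 1 probe set per gene, 43.3% of all genes passed in WiDr and 42.1% in HT29, so the list's counts of 4 and 5 of 9 lie near the background. The list's mean level per array went from 5.48 to 5.50 up to 5.91 to 5.96 in WiDr and from 6.05 to 6.07 up to 6.55 to 6.61 in HT29. The brush border enzyme SI rose by 2.99 and 5.14 and the fatty acid carrier FABP1 by 2.81 and 2.04, while KRT20 changed by -1.22 and -1.10 and the carbonic anhydrase CA2 by -0.43 and -1.82, in WiDr and HT29 in turn. Of 6 goblet and secretory genes, 1 rose and 2 fell in WiDr and 3 rose and 1 fell in HT29, with array means of 6.15 to 6.21 against 6.004 to 6.09 in WiDr and 6.96 to 7.06 against 7.19 to 7.20 in HT29. Of 4 Paneth cell genes, none passed in WiDr and 1 rose in HT29 (PLA2G2A, 0.48), with array means of 7.30 to 7.47 against 7.30 to 7.41 and of 7.34 to 7.44 against 7.50 to 7.66. Of 6 fibroblast genes 1 rose and 1 fell in WiDr and 1 rose in HT29, with array means of 4.11 to 4.34 against 4.35 to 4.47 and of 4.34 to 4.55 against 4.65 to 4.71. The riser was LUM in both lines, by 1.25 in WiDr (adjusted p = 8.06e-08) and 1.77 in HT29 (adjusted p = 9.85e-10). Of 4 measured blood cell genes 1 rose in each line, CD68, by 0.72 and 0.50, with array means of 5.31 to 5.33 against 5.50 to 5.55 and of 5.35 to 5.63 against 5.57 to 5.67. None of 3 endothelial genes passed in either line.

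LGR4, the broadly expressed relative of LGR5, passed narrowly with AZ628 in WiDr. Its probe set 11743626_s_at read 9.99, 9.55 and 9.86 in WiDr with vehicle and 10.29, 10.34 and 9.99 with AZ628, ranges that touch. The difference of 0.41 ± 0.15 passed (n = 3 against 3, adjusted p = 0.0425), but it was lost without vehicle replicate 2 (0.28, adjusted p = 0.206) or 3 (adjusted p = 0.0655), or without AZ628 replicate 1 (adjusted p = 0.122) or 2 (adjusted p = 0.147). HT29 read 10.11, 10.53 and 10.18 with vehicle and 10.53, 10.33 and 10.85 with AZ628, a difference of 0.30 that did not pass (adjusted p = 0.147). The 2 lines' responses were not shown to differ (HT29 minus WiDr -0.11, adjusted p = 0.882), and the HT29 rise passed with both LGR4 probe sets averaged (0.18, adjusted p = 0.0465) or after a further quantile normalization (0.35, adjusted p = 0.0469). With the IKKα shRNA the arrays read 9.48, 9.42 and 9.86 and with the control shRNA 9.86, 9.91 and 10.03, a difference of -0.35 (adjusted p = 0.106) that passed without IKKα shRNA replicate 3 (-0.48, adjusted p = 0.0332) and with both probe sets averaged (-0.22, adjusted p = 0.0197). Every group overlapped with its neighbours in the order of levels. The second LGR4 probe set, 11743625_a_at, gave 0.07, 0.07 and -0.10 in the 3 comparisons, and none passed.

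RNF43, a ligase that removes Frizzled receptors, rose with both AZ628 and the IKKα shRNA. Probe set 11720450_a_at read 9.71, 9.66 and 9.56 in WiDr with vehicle and 10.43, 10.32 and 10.38 with AZ628. HT29 read 9.68, 9.65 and 9.87 with vehicle and 10.67, 10.55 and 10.54 with AZ628. The control shRNA arrays read 9.62, 9.69 and 9.45 and the IKKα shRNA arrays 10.03, 10.06 and 10.05. None of these pairs of groups overlapped. The differences were 0.74 ± 0.08 (adjusted p = 2.11e-07), 0.85 ± 0.08 (adjusted p = 3.89e-08) and 0.46 ± 0.08 (adjusted p = 0.000101), each with n = 3 against 3. The 3 control groups, control shRNA, WiDr vehicle and HT29 vehicle, overlapped at the bottom of the order, followed by IKKα shRNA, WiDr AZ628 and HT29 AZ628 with no overlap between them.

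The other 5 RNF43 probe sets pointed the same way in these 3 comparisons but not all passed. The x-type probe set 11756284_x_at, which can share sequence with 11720450_a_at and is no separate replicate, rose by 0.78, 0.91 and 0.49. Probe set 11750672_a_at rose by 0.35, 0.62 and 0.28, the last of these lost without IKKα shRNA replicate 2 (adjusted p = 0.0508). In HT29 11720449_a_at rose by 0.40 and 11760630_at by 0.52, the latter lost without vehicle replicate 1 (adjusted p = 0.0806), and neither passed in WiDr with either treatment. The sixth, 11758834_at, read 6.07, 7.60 and 7.26 in HT29 with vehicle and 8.39, 8.57 and 7.94 with AZ628. Its rise of 1.33 ± 0.40 (n = 3 against 3, adjusted p = 0.0129) fell to 0.87 without vehicle replicate 1 (adjusted p = 0.0948) and was lost without AZ628 replicate 2 (1.19, adjusted p = 0.0519). With the probe sets of the gene averaged, the RNF43 change with the shRNA was 0.27 and did not pass (adjusted p = 0.058).

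ZNRF3, the partner ligase, moved in opposite directions with the 2 treatments of WiDr. Its only probe set read 9.22, 9.14 and 9.20 with vehicle and 9.48, 9.52 and 9.47 with AZ628, a rise of 0.31 ± 0.05 (n = 3 against 3, adjusted p = 0.000142). The control shRNA arrays read 9.61, 9.53 and 9.54 and the IKKα shRNA arrays 9.12, 9.20 and 9.11, a fall of 0.41 (difference -0.41 ± 0.05, n = 3 against 3, adjusted p = 9.39e-06). Neither pair overlapped, and the shRNA change lay 0.72 below the AZ628 change (difference -0.72, adjusted p = 4.87e-07). ZNRF3 stood 0.37 higher with the control shRNA than with vehicle (adjusted p = 0.000187), and against vehicle the IKKα shRNA gave -0.04 (adjusted p = 0.628). In HT29 the arrays overlapped, at 8.99, 8.99 and 8.95 with vehicle and 8.97, 8.90 and 8.91 with AZ628, and the AZ628 change differed from that in WiDr by -0.36 (adjusted p = 0.00795).

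AXIN2, both a target and an inhibitor of the pathway, is often read as a gauge of β-catenin activity. It rose with AZ628 in both lines and with the IKKα shRNA. Its brightest probe set, 11718452_at, went from 8.60, 8.47 and 8.72 to 10.10, 9.98 and 10.01 with AZ628 in WiDr. HT29 went from 8.43, 8.50 and 8.53 to 9.85, 9.88 and 9.81. The shRNA against IKKα gave 9.39, 9.36 and 9.37, and the control shRNA 8.81, 8.78 and 8.67. Treated and control arrays did not overlap in any of the 3 comparisons. The rise was 1.43 ± 0.07 (2.7-fold, adjusted p = 7.23e-12) in WiDr, 1.36 ± 0.07 (2.56-fold, adjusted p = 2.04e-11) in HT29 and 0.62 ± 0.07 (1.53-fold, adjusted p = 1.08e-06) with the IKKα shRNA, each with n = 3 against 3.

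The AXIN2 response to AZ628 in HT29 minus that in WiDr was -0.08 (95% interval -0.28 to 0.12, adjusted p = 0.786), and the shRNA response was smaller than that to AZ628 by 0.82 (difference -0.82, adjusted p = 1.49e-06). In the order of levels HT29 vehicle, WiDr vehicle and control shRNA overlapped, and IKKα shRNA, HT29 AZ628 and WiDr AZ628 followed without overlap. The second probe set, 11718453_a_at, rose by 0.90, 0.76 and 0.48 in the same 3 comparisons. The dimmest, 11718451_a_at, lay between 3.44 and 4.17 on all arrays, among the lowest 30% of probe sets, and passed with AZ628 in HT29 alone (0.42, adjusted p = 0.00606).

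NKD1, an inhibitor that acts on Dishevelled and a known Wnt target, showed no shared change across its 4 probe sets. The brightest, 11733326_at, read 7.12, 7.33 and 7.23 in WiDr with vehicle and 7.26, 7.07 and 7.48 with AZ628. HT29 read 7.43, 7.46 and 7.12 with vehicle and 7.34, 7.49 and 7.51 with AZ628, and the shRNA arrays 7.11, 6.91 and 6.85 for the control and 7.17, 7.17 and 7.07 for IKKα. The arrays overlapped in each comparison, with differences of 0.04 (95% interval -0.18 to 0.27), 0.11 (-0.11 to 0.34) and 0.18 (-0.05 to 0.41). One probe set, 11763963_at, went from 4.92, 5.05 and 4.91 to 4.22, 4.63 and 4.63 with AZ628 in WiDr, a fall of 0.46 (difference -0.46, adjusted p = 0.00144). In HT29 it gave 0.18 (adjusted p = 0.218), and the difference between the lines was 0.64 ± 0.15 (adjusted p = 0.0142). The other two, 11759106_at and 11733327_at, passed in none of the 3 comparisons.

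ASCL2, a transcription factor that maintains the LGR5 stem cell state, rose with AZ628 while LGR5 fell. In WiDr it went from 6.96, 7.04 and 7.23 to 8.19, 8.09 and 7.995, and in HT29 from 7.70, 7.92 and 7.89 to 8.48, 8.35 and 8.31. Vehicle and AZ628 arrays did not overlap in either line. The rise was 1.01 ± 0.09 (2.02-fold, adjusted p = 2.4e-08) in WiDr and 0.54 ± 0.09 (1.46-fold, adjusted p = 5.84e-05) in HT29, each with n = 3 against 3. The response was smaller in HT29 by 0.47 (difference -0.47 ± 0.12, adjusted p = 0.0313), a call lost without any of 8 single arrays, namely WiDr vehicle replicates 1 and 2, WiDr AZ628 replicates 1 and 2, HT29 vehicle replicates 2 and 3, and HT29 AZ628 replicates 2 and 3 (adjusted p 0.062 to 0.0834). It was also lost in a fit of these 4 groups alone (adjusted p = 0.0606). HT29 also held more ASCL2 signal with vehicle, by 0.76 (adjusted p = 2.74e-06).

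The shRNA against IKKα left ASCL2 at 6.99, 6.95 and 7.04, against 6.89, 7.002 and 6.76 with the control shRNA, a difference of 0.11 (95% interval -0.08 to 0.29, adjusted p = 0.41). Both shRNA groups and WiDr vehicle overlapped at the bottom of the order, and HT29 vehicle, WiDr AZ628 and HT29 AZ628 followed without overlap.

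SP5, a zinc finger repressor induced directly by β-catenin and TCF factors, fell with the IKKα shRNA and did not pass with AZ628 in either line. Its arrays read 7.12, 7.26 and 7.29 with the control shRNA and 5.70, 5.90 and 5.98 with the IKKα shRNA. Those are the lowest values of all 18 arrays. The fall was 2.57-fold (difference -1.36 ± 0.08, n = 3 against 3, adjusted p = 3.3e-10), and it stood at 2.18-fold against WiDr vehicle (difference -1.13, adjusted p = 5.33e-09). With AZ628, SP5 went from 6.995, 6.92 and 7.04 to 6.82, 6.89 and 6.83 in WiDr (difference -0.14, 95% interval -0.31 to 0.03, adjusted p = 0.186). In HT29 it went from 7.08, 6.85 and 7.04 to 7.10, 7.17 and 7.08 (0.13, -0.04 to 0.30, adjusted p = 0.23). The shRNA change lay 1.22 below the AZ628 change in WiDr (difference -1.22 ± 0.11, adjusted p = 7e-08).

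The SP5 promoter window printed above is that of a gene with the opposite change to AXIN2 under the IKKα shRNA, where AXIN2 rose by 0.62 and SP5 fell by 1.36. The control shRNA stood 0.24 above vehicle for SP5 (adjusted p = 0.0488). This call was lost without any 1 of WiDr vehicle replicates 1, 2 and 3 or control shRNA replicates 2 and 3 (adjusted p 0.0695 to 0.168). It was also lost with shared probe sets left out (adjusted p = 0.054) and after a further quantile normalization (adjusted p = 0.195). A trend and robust prior (adjusted p = 0.0586) and a fit of these 2 groups alone (adjusted p = 0.0738) lost it too. In the goblet and secretory list, 4 of 6 genes fell with the IKKα shRNA and none rose, with array means of 6.54 to 6.64 for the control and 5.52 to 5.59 for IKKα. With 1 probe set per gene, 33% of all genes passed in this comparison (14.9% higher and 18.1% lower). REG4 fell by 3.07 and TFF3 fell by 1.74. Of the 9 absorptive genes 1 rose and 3 fell, and of the 4 Paneth genes none passed, with array means of 5.57 to 5.61 against 5.26 to 5.39 and of 7.17 to 7.29 against 7.36 to 7.46. Of 6 fibroblast genes 2 rose, LUM by 2.84 and COL3A1 by 0.50, with array means of 4.11 to 4.17 against 4.69 to 4.80. The absorptive and fibroblast counts lie near the share of all genes. The part of these markers in the SP5 result was not tested.

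OLFM4, a secreted glycoprotein found in human crypt stem cells, was near the floor of the array. Probe set 11718131_a_at lay between 3.18 and 3.65 and 11718130_s_at between 2.81 and 3.14 on all arrays, both among the lowest 30% of probe sets. WiDr read 3.36, 3.46 and 3.49 with vehicle and 3.48, 3.18 and 3.47 with AZ628, and HT29 read 3.33, 3.65 and 3.52 with vehicle and 3.54, 3.33 and 3.38 with AZ628. The control shRNA arrays read 3.44, 3.44 and 3.47 and the IKKα shRNA arrays 3.34, 3.45 and 3.64. All groups overlapped, and neither probe set passed in any of the 8 comparisons made. At such signals a change in OLFM4 could not be measured.

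PROM1, the membrane protein CD133 used to mark colorectal cancer stem cells, rose moderately with AZ628 in WiDr. Its bright probe set, 11754354_s_at, went from 10.47, 10.21 and 10.29 to 10.83, 10.92 and 10.71, without overlap, a rise of 0.49 ± 0.08 (1.41-fold, n = 3 against 3, adjusted p = 5.93e-05). HT29 went from 10.47, 10.64 and 10.65 to 10.86, 10.71 and 10.87, a rise of 0.23 (adjusted p = 0.0319) that was lost without vehicle replicate 1 (adjusted p = 0.153), AZ628 replicate 1 (adjusted p = 0.101) or AZ628 replicate 3 (adjusted p = 0.105), and in a fit of these 2 groups alone (adjusted p = 0.0665). With both PROM1 probe sets averaged, the HT29 rise was 0.13 and did not pass (adjusted p = 0.0869). The shRNA arrays overlapped, at 11.002, 10.90 and 10.86 for the control and 10.88, 10.85 and 10.88 for IKKα (difference -0.05, adjusted p = 0.689). Both shRNA groups stood above WiDr vehicle, by 0.60 (adjusted p = 9.57e-05) and 0.54 (adjusted p = 4.05e-05). In the order of levels the vehicle groups of both lines overlapped at the bottom, and the other 4 groups formed an overlapping chain above them. Probe set 11756660_a_at passed with AZ628 in WiDr (0.27, adjusted p = 0.0157), a call lost without vehicle replicate 1 (adjusted p = 0.055) or 2 (adjusted p = 0.0538) or AZ628 replicate 1 (adjusted p = 0.0959), and in neither of the other comparisons (0.04 in HT29 and 0.20 with the shRNA).

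**Figure D3:**
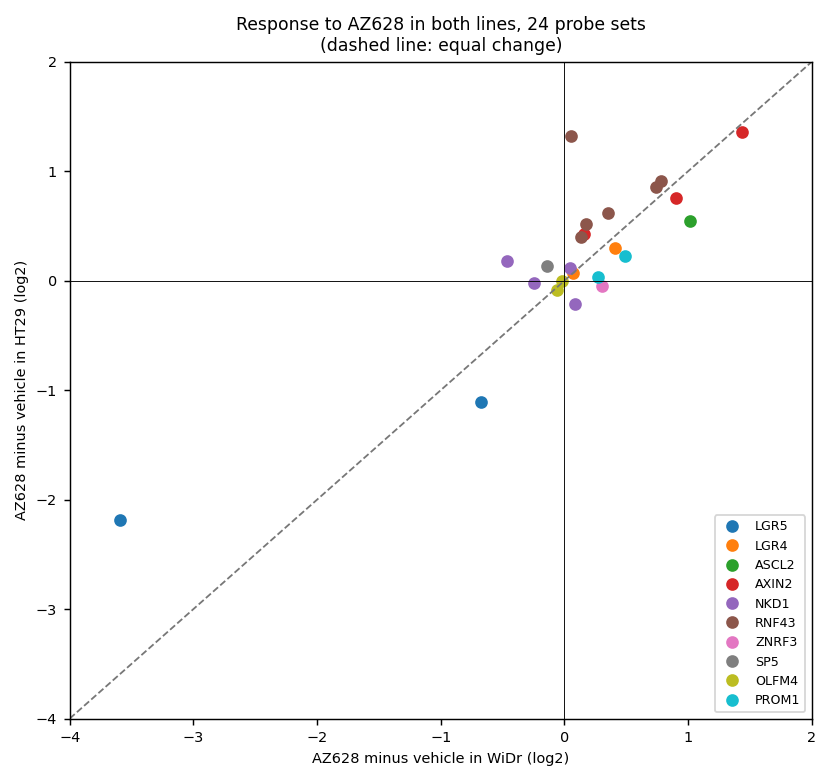
Log2 difference with AZ628 in WiDr (horizontal axis) against that in HT29 (vertical axis) for the 24 member probe sets, each point 1 probe set. AXIN2 lies near the line of equal change at 1.43 and 1.36, LGR5 11759120_a_at at -3.59 and -2.19, and ASCL2 at 1.01 and 0.54.

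The AZ628 response of the members differed between the lines for 4 of 24 probe sets, 2 higher and 2 lower in HT29, against 5.51% of all probe sets (2.43% and 3.08%). These were LGR5 11759120_a_at, ASCL2, NKD1 11763963_at and ZNRF3, with the values given above. With vehicle alone, 7 of 24 member probe sets differed between the lines, 6 higher and 1 lower in HT29, against 26.5% of all probe sets (14.1% and 12.4%). Both LGR5 probe sets were higher in HT29, by 1.12 (adjusted p = 8.89e-05) and 0.74 (adjusted p = 0.000112), as was ASCL2, while ZNRF3 was lower by 0.21 (difference -0.21, adjusted p = 0.00797), a call lost in a fit of the 2 groups alone (adjusted p = 0.0674). LGR4 11743626_s_at was higher by 0.47 (adjusted p = 0.0288), a call lost without WiDr vehicle replicate 2 (adjusted p = 0.15) or 3 (adjusted p = 0.0512) or HT29 vehicle replicate 2 (adjusted p = 0.147). PROM1 11754354_s_at was higher by 0.26 (adjusted p = 0.0216), lost without WiDr vehicle replicate 2 or 3 or HT29 vehicle replicate 2 or 3 (adjusted p 0.0706 to 0.115), and PROM1 11756660_a_at by 0.30 (adjusted p = 0.0119). AXIN2 and RNF43 did not pass, at -0.11 and 0.09 for their brightest probe sets, nor did SP5 at 0.00.

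The control shRNA arrays differed from the vehicle arrays of WiDr for 4 members. Against WiDr vehicle, 6 of 24 probe sets passed, 4 higher and 2 lower, against 16.9% of all probe sets (9.92% and 6.93%): both LGR5 probe sets fell, and ZNRF3, SP5 and both PROM1 probe sets rose. The SP5 call was lost in 10 of 14 alternatives, the 2-fold minimum not counted. The groups also differ in transduction and in vehicle, which cannot be told apart here. Against the same vehicle arrays the IKKα shRNA gave 9 of 24, 6 higher and 3 lower, against 31.2% of all probe sets (16.1% and 15.1%), with AXIN2 11718452_at at 0.78 and RNF43 11720450_a_at at 0.41, both rises, though RNF43 did not pass with its probe sets averaged (0.20, adjusted p = 0.161). LGR4 averaged in that way passed (-0.20, adjusted p = 0.0369). The shRNA response minus the AZ628 response in WiDr passed for 10 of 24, 2 higher and 8 lower, against 36.8% of all probe sets (18% and 18.7%). The 2 higher were the LGR5 probe sets, and the 8 lower were of LGR4, ASCL2, AXIN2, RNF43, ZNRF3, SP5 and PROM1, with AXIN2 represented by 2. Among these, AXIN2 11718453_a_at (-0.42) was lost without control shRNA replicate 2 (adjusted p = 0.0505). RNF43 11756284_x_at (-0.29) was lost without WiDr vehicle replicate 3, AZ628 replicate 1, control shRNA replicate 1 or 2 or IKKα shRNA replicate 1 or 2 (adjusted p 0.0519 to 0.0698). It was the only RNF43 probe set to pass here. The brightest, 11720450_a_at, did not pass in the main fit (adjusted p = 0.0518) but did in 5 of 20 alternatives, the 2-fold minimum not counted.

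The levels of 3 members across the 18 arrays were set against those of other genes. The candidates came from 9357 probe sets whose group means spanned at least 1 log2 unit, a number that includes the members' own. Nearest to LGR5 were SRPRB (r = 0.9586), APEH (0.9581), NR0B2 (0.9554), NDUFAF8 (0.9539) and MRPL12 (0.9534). For ASCL2 the nearest were BABAM2 (r = 0.9884), STAMBP (0.9862), SLC23A3 (0.9841), CREG1 (0.9834) and CALCOCO2 (0.9828). AXIN2 lay nearest to PKIB (r = 0.9893), MON2 (0.9879), MUC20 (0.9852), SLC16A4 (0.9825) and BMF (0.9818). These r values describe 18 arrays that fall into 6 groups and were normalised together, so they are given as a description without a p-value.

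**Figure D4:**
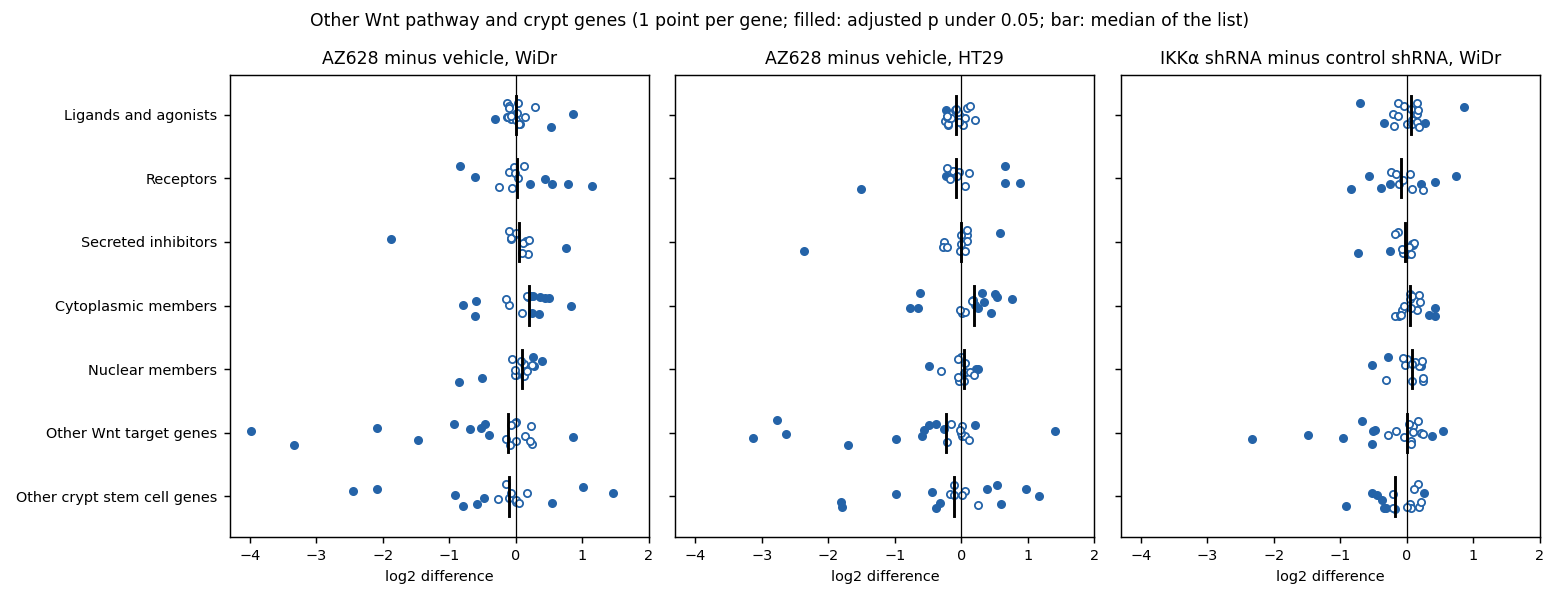
Log2 difference (horizontal axis) of each measured gene in 7 lists of the pathway (rows). Panels are AZ628 in WiDr, AZ628 in HT29 and the IKKα shRNA, points are genes and the bar is the list's median. Cytoplasmic members have their medians above 0 in all 3 comparisons, at 0.20, 0.19 and 0.05. The leftmost points with AZ628 are MYC and CCND1 among the other Wnt targets.

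The rest of the pathway was read from lists of named genes, with 1 probe set per gene. At that level 43.3% of 18132 genes passed with AZ628 in WiDr (22.8% higher and 20.5% lower), 42.1% in HT29 (21.8% and 20.4%) and 33% with the IKKα shRNA (14.9% and 18.1%), and the medians over all genes were -0.0005, 0.0048 and 0.0238. Of 18 ligands and agonists, 2 rose and 1 fell with AZ628 in WiDr (median 0.002). WNT10A rose by 0.86 and WNT7B by 0.53, while WNT10B fell by 0.31. In HT29, 1 fell and none rose (median -0.08), a count that was 0 without vehicle replicate 1 or 2 or AZ628 replicate 3 and 2 without AZ628 replicate 2. WNT10A in HT29 stood at -0.08, which differed from WiDr by -0.94 (adjusted p = 1.53e-05). With the IKKα shRNA, 2 rose and 2 fell (median 0.07, and 2 in all without IKKα shRNA replicate 3), with WNT11 at 0.86 and WNT10A at -0.70. R-spondin genes RSPO1, RSPO3 and RSPO4, ligands of LGR4 and LGR5, passed in none of these 3 comparisons.

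Among 14 receptors, 5 rose and 2 fell with AZ628 in WiDr (median 0.01), 3 rose and 2 fell in HT29 (median -0.09), and 3 rose and 4 fell with the IKKα shRNA (median -0.09). The Frizzled receptors FZD1 and FZD2, targets of RNF43 and ZNRF3 at the protein level, rose by 1.15 and 0.79 in WiDr and by 0.66 and 0.89 in HT29. ROR1 fell by 0.84 and the co-receptor LRP5 fell by 0.61 in WiDr. With the shRNA FZD4 fell by 0.84 and LGR6, the third LGR receptor, rose by 0.75. Of 12 secreted or membrane inhibitors, 1 rose and 1 fell with AZ628 in each line (medians 0.05 and -0.01). DKK1, an antagonist of LRP co-receptors and itself a Wnt target, fell by 1.88 in WiDr and fell by 2.36 in HT29. KREMEN1, its receptor, rose by 0.76 in WiDr and stood at 0.06 in HT29 (difference of the effects -0.69, adjusted p = 0.000102). With the IKKα shRNA 2 of the 12 fell and none rose (median -0.02), at -0.74 for KREMEN1 and -0.26 for DKK1, but 1 alone passed without control shRNA replicate 2 or 3 or IKKα shRNA replicate 2.

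Of 16 cytoplasmic members, 9 rose and 3 fell with AZ628 in WiDr (median 0.20) and likewise 9 and 3 in HT29 (median 0.19). BTRC, the ligase subunit that marks β-catenin for degradation, rose by 0.83, and AXIN1, the constitutive relative of AXIN2, fell by 0.79 in WiDr, as AXIN2 rose. NKD2, the relative of NKD1, fell by 0.62 and DVL1 fell by 0.60. In HT29 AXIN1 fell by 0.65 and NKD2 fell by 0.77. With the IKKα shRNA 3 rose and none fell (median 0.05), among them the kinase gene CSNK1A1 by 0.43 and BTRC by 0.42. Of 14 nuclear members, 3 rose and 2 fell in WiDr (median 0.10), 2 rose and 1 fell in HT29 (median 0.04), and 1 rose and 2 fell with the shRNA (median 0.07). TCF7L2, the main TCF factor of colon epithelium, fell by 0.86 in WiDr and fell by 0.49 in HT29, and the corepressor TLE4 fell by 0.51 while BCL9L rose by 0.39 and TLE1 by 0.28 in WiDr. CTBP1 fell by 0.52 and TLE5 fell by 0.29 with the shRNA.

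More of the other Wnt target genes fell than rose with AZ628. Of 20 measured, 1 rose and 9 fell in WiDr (median -0.11), and 2 rose and 10 fell in HT29 (median -0.24). The changes in WiDr and HT29 were -3.98 and -3.14 for MYC, -3.34 and -2.77 for CCND1, -2.08 and -0.98 for CD44, and -1.46 and -1.70 for MMP7, all of which passed. SOX4 rose by 0.87 and 1.40. With the IKKα shRNA 2 rose and 7 fell (median -0.004), led by ID2 at -2.33 and FGF9 at -1.49, while MYC stood at -0.04 and CCND1 at 0.09 without passing. Of 17 other crypt stem cell genes, some of which are on the target list too, 3 rose and 6 fell in WiDr (median -0.10), 5 rose and 6 fell in HT29 (median -0.12), and 1 rose and 7 fell with the shRNA (median -0.18, and 0 rose and 5 fell without IKKα shRNA replicate 2). CDCA7 fell by 2.45 and CD44 fell by 2.08 in WiDr, where ALDH1A1 rose by 1.46 and ALCAM by 1.01. CDCA7 fell by 0.91 and CD44 fell by 0.53 with the shRNA.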

How the data were processed

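The deposited values are log2 signals per probe set. The submitters' processing notes list RMA, limma and R 3.0.2. Per the labels, 100 ng of total RNA per sample was labelled. RMA draws arrays to one distribution and compresses dim signals, so folds of dim probe sets are understated and a shift common to most genes cannot be seen. Of 49395 probe sets, 102 controls were left out, 44988 had 1 symbol, 1832 had several and 2473 had none. No filter on dim probe sets was applied. In R 4.3.3, limma 3.58.1 fitted 6 group means to all 18 arrays (12 residual degrees of freedom), with eBayes and two-sided p-values adjusted by Benjamini-Hochberg over 49293 probe sets in each of 8 comparisons. Intervals are 95%. The script was tested on simulated data.

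Values on every array are given for each member's brightest probe set (highest mean over 18 arrays) and for any other that passed at 2-fold with AZ628 or the IKKα shRNA, and NKD1 11763963_at was added after its values were seen. Listed genes are represented by their brightest probe set, and up to 4 of those passing with AZ628 in WiDr and 2 with the shRNA are named by size of change. Others (WNT10A, KREMEN1, AXIN1 and NKD2 in HT29, SOX4, the R-spondins and the markers) were picked after their values were seen. Of 150 list genes 143 were measured. The members and lists were chosen with earlier results of these data known. The number of arrays limits precision. Alternatives are described in the closing section. Figures were drawn with matplotlib 3.10.9.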

Additional observations from a re-analysis of the deposited data

Results flagged for a closer look

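For 4 member probe sets the response to AZ628 differed between the lines by limma's test of the difference (HT29 minus WiDr), which is why they are listed. The values were 1.41 for LGR5 11759120_a_at, where both lines fell and WiDr fell further, and -0.47 for ASCL2, where both lines rose and WiDr rose further. They were 0.64 for NKD1 11763963_at, which fell in WiDr at a dim signal, and -0.36 for ZNRF3, which rose in WiDr. The LGR5 call was lost with the gene's probe sets averaged (adjusted p = 0.12), and LGR5 11733962_a_at went the other way without passing (adjusted p = 0.177). By 11733962_a_at, WiDr with AZ628 overlapped with both shRNA groups, so the WiDr fall by this probe set can be understated. The ASCL2 call was lost in 10 of 20 alternatives, the 2-fold minimum not counted. The cause of these differences was not tested.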

How the results depend on the processing

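No member call reversed direction under any alternative. With 1 probe set per gene, 7 of 10 members passed with AZ628 in WiDr, 5 in HT29, 4 with the IKKα shRNA and 5 for the IKKα shRNA against vehicle, where 44.6%, 43.6%, 34.9% and 36.3% of all genes passed; the counts for HT29 and the IKKα shRNA lie near that background. Averaging a gene's probe sets gave 7, 5 and 4 of 10 (44.3%, 43.1% and 34.7% of all genes), 2 for the difference between the lines (8.79%) and 5 for the IKKα shRNA against vehicle (36.7%). Fewer entries make these counts lower by construction. A 2-fold minimum gave 3, 4 and 1 of 24 (7.13%, 5.79% and 3.13% of all probe sets), then 1 for the difference between the lines (0.736%), 1 for HT29 against WiDr (2.1%), 0 for the control shRNA against vehicle (6 at the limma adjusted p alone; 0.306% at 2-fold), 2 for the IKKα shRNA against vehicle (2.5%) and 2 for the shRNA effect minus the AZ628 effect (10.3%). Leaving out single arrays gave 11 to 13 with AZ628 in WiDr, 10 to 13 in HT29, 6 to 8 with the shRNA, 3 to 4 for the difference between the lines, 5 to 8 for HT29 against WiDr, 5 to 6 and 9 to 10 for the control and IKKα shRNAs against vehicle, and 8 to 11 for the shRNA effect minus the AZ628 effect.

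Whether the replicate number pairs the arrays was not settled. Deviations of same-numbered arrays correlated between -0.3027 and 0.3232, with 9 of 45 pairs over 0.1, but differently numbered arrays were not set beside them. With the number as a replicate block, 12 member probe sets passed with AZ628 in WiDr, 13 in HT29 and 7 with the shRNA, and the calls of LGR4 with AZ628 in WiDr, of ASCL2 between the lines and of SP5 with the control shRNA were lost. Other settings (dim or shared probe sets left out, quantile normalization again, a trend and robust prior, fits of the compared groups alone) kept each count within 1.5 times the main one. Fewer probe sets passed in all for the control shRNA against vehicle without WiDr vehicle replicate 2, 4535 against 8307. Signals near the floor limit OLFM4 and the dimmest AXIN2 and NKD1 probe sets.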
